A study of Mus musculus with 16 samples.

Results

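The genes examined here encode translation initiation and elongation factors, found as every gene symbol that begins with Eif or Eef followed by a digit. This rule gave 67 of the 23356 genes in each table. They were 47 initiation factor subunits and factors, 8 elongation factor genes, 4 kinases of initiation factor eIF2 (Eif2ak1 to Eif2ak4), 4 genes that bind the cap-binding protein eIF4E, and 4 Argonaute genes that the tables list under their older symbols, Eif2c1 to Eif2c4. Argonautes act in RNA silencing and are translation initiation factors by symbol only. The elongation factor genes are likewise grouped by symbol, and Eef2k among them encodes a kinase that inhibits eEF2.

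RNA was sequenced from NIH3T3 cells, a mouse fibroblast line, and every sample stably expressed DD-sfGFP, a destabilizing domain fused to superfolder GFP. Treated cells were collected 45, 135 or 405 min after bortezomib, an inhibitor of the proteasome, and control cells at 0 min, with 4 replicates in each of the 4 groups. According to the study's methods the cells were a pool sorted for strong GFP signal, and the series asks how transcript levels respond when protein degradation is blocked. No untreated samples of the later times were analysed here, so time in culture and drug cannot be told apart. The labels do not say that replicates were separate cultures, so the tests measure only the spread between these libraries, which may be technical.

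Initiation begins when eIF2 brings the initiator tRNA to the small ribosomal subunit, while eIF4E, eIF4G and eIF4A gather at the cap of the mRNA and eIF3 joins them to the ribosome. During elongation eEF1A delivers each aminoacyl-tRNA and eEF2 moves the ribosome along. The 4 kinases each answer a different stress (haem shortage, double-stranded RNA, unfolded protein in the endoplasmic reticulum, or amino acid shortage) and phosphorylate the alpha subunit of eIF2, which slows initiation in general and favours translation of Atf4.

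Depth ranged from 570323 to 19930375 fragments, and ribosomal protein genes took over 4% of the fragments (4.25% to 9.42%) in only 7 libraries, namely replicates 1 and 2 at 45 min, replicates 1 and 2 at 135 min, and replicates 1, 3 and 4 at 405 min. In the other 9 libraries, with all 4 controls among them, this share was 0.398% to 1.21%. Olfactory and vomeronasal receptor genes took 0.00556% to 2.62% of fragments in the 7 and 4.16% to 5.14% in the 9. Summed over 8 fibroblast markers, levels were 3415 to 20164 fragments per 1000000 in the library (CPM) in the 7 and 215 to 1555 in the 9. Sums over 5 epithelial markers were 0 to 96.7 and 142 to 198 CPM, over 5 haematopoietic markers 0 to 69.3 and 54.5 to 160 CPM, with Hbb-b1 at 0 throughout, and over 5 neuronal markers 0.435 to 80.9 and 14.8 to 197 CPM. The library nearest above 4% was replicate 3 at 405 min (4.25%), and the nearest below was control replicate 2 (1.21%). Because no control library lay above 4%, bortezomib and control could not be compared within the 7.

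Base composition differs among the translation factor genes and is set beside their levels in each library further on. Stretches of coding sequence from both ends of that range are shown for members with a median of at least 100 CPM in the 7 libraries, each 90 bases long, 5′ to 3′ on the coding strand, with G and C in capitals.
Eif1ax: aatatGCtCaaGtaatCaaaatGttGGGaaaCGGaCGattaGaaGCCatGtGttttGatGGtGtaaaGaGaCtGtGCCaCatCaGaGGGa
Eif3e: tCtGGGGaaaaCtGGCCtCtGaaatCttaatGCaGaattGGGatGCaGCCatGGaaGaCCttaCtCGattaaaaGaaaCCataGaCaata
Eef1d: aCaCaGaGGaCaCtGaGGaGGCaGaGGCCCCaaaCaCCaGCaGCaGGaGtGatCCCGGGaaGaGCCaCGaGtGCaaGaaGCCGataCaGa
Eef2: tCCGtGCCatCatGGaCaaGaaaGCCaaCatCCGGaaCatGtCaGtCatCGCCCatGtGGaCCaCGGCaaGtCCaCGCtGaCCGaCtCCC
The Eif1ax stretch lies at chrX:155815391-155815480 on the plus strand in exon 3 of 7, and the Eif3e stretch at chr15:43097682-43097771 on the minus strand in exon 6 of 13. G and C made up 41.1% of each. The Eef1d stretch (58.9%) lies at chr15:75733950-75734039 on the minus strand in exon 2 of 9, and the Eef2 stretch (57.8%) at chr10:80640432-80640521 on the plus strand in exon 2 of 14. Positions are on NCBIM37 with the GENCODE M1 annotation. Each stretch comes from the longest annotated transcript of its gene. Whether other transcript forms of the gene, Eef1d among them, contain the stretch was not examined. Eif1ax encodes a form of eIF1A, which acts in scanning, and Eif3e a subunit of eIF3. Eef1d encodes a subunit of the exchange factor that recharges eEF1A, and Eef2 the translocase.

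Translation factor genes took a far larger share of the fragments in some libraries than in others, and these were the libraries rich in ribosomal protein transcripts. All 67 together took 2.86% ± 0.941 (SD, n = 7) of the fragments in the libraries over 4% and 0.352% ± 0.0892 (SD, n = 9) in the rest. In the controls the share was 0.359% ± 0.103 (SD, n = 4). Libraries of one time fell on both sides, with 3.71% in replicate 1 and 0.302% in replicate 3 at 45 min. Fewer cells with a given transcript, less of it per cell and a difference between the libraries themselves cannot be told apart here. Fits with a term for the receptor share, and fits of the libraries at or under 4% alone, are given below. Whether the ribosomal protein, receptor and marker levels given above caused any difference was not tested.

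Initiation factor subunits and factors took 0.197%, 0.306%, 0.190% and 0.150% of the fragments in control replicates 1 to 4. After 45 min of bortezomib they took 1.56%, 1.42%, 0.183% and 0.150%, and after 135 min 1.38%, 1.19%, 0.207% and 0.195%. The 405 min replicates had 1.46%, 0.297%, 0.923% and 1.78%. Every library over 4% thus stood above every control, and every treated library at or under 4% lay within the control range or just under it.

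Elongation factor genes took 0.0692%, 0.138%, 0.0544% and 0.0608% in the controls. In the 45 min replicates their shares were 2.08%, 1.44%, 0.0485% and 0.0397%, and in the 135 min replicates 0.761%, 1.10%, 0.0738% and 0.0612%. The 405 min replicates had 2.13%, 0.130%, 0.395% and 2.001%. The same 7 libraries stood above all controls, and they differed more among themselves than for the initiation factors. Eef1a1 held most of the class share in each of them. It had 319967 of 382417 fragments in replicate 1 at 45 min and 204893 of 323589 in replicate 1 at 405 min. Gene by gene, Eef1a1, Eef1b2, Eef1d and Eef1g were higher in all 7 than in all 9 others. Eef2, Eef2k, Eef1a2 and Eef1e1 overlapped.

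The eIF2 kinases behaved otherwise. They took 0.0146%, 0.0158%, 0.0159% and 0.0197% in the controls, then 0.0184%, 0.0158%, 0.0120% and 0.0175% after 45 min. The 135 min replicates had 0.0150%, 0.0165%, 0.00579% and 0.00738%. Those of 405 min had 0.0140%, 0.0151%, 0.0150% and 0.0126%. The lowest rested on 33 fragments (95% Wilson interval 0.00412% to 0.00813%), and the lowest share of the initiation factors had an interval of 0.140% to 0.160%. Such intervals cover counting error only. The 7 libraries averaged 0.0153% ± 0.00186 (SD, n = 7) and the 9 others 0.0137% ± 0.00457 (SD, n = 9), and the 2 ranges overlapped.

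**Figure D1:**
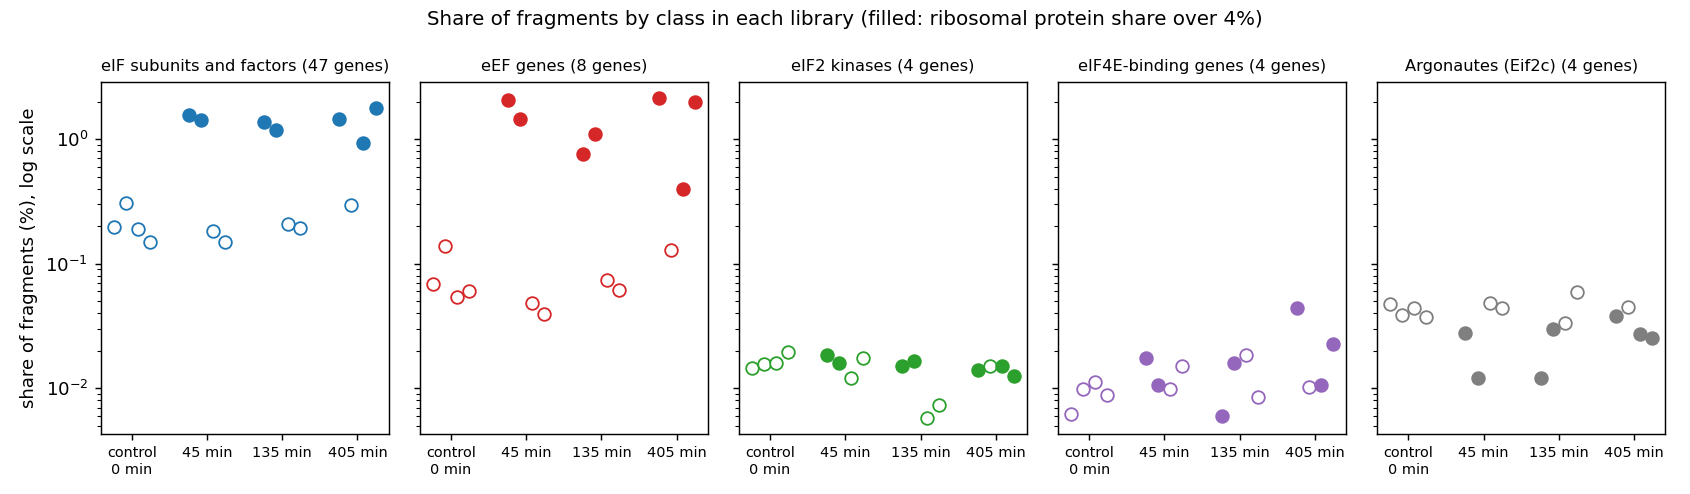
Share of fragments (%, log scale) taken by each class of genes in each of the 16 libraries, grouped by time, with replicates 1 to 4 from left to right in each group. Filled points are the 7 libraries over 4% ribosomal protein share and open points the other 9. Filled points stand apart from open ones for initiation and elongation factors and mix with them for the kinases. Eef1a1 holds most of the elongation factor share in the filled points.

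Gene by gene, 25 of the 67 members had all 7 libraries over 4% above all 9 others in CPM, where the share over all 23356 genes was 4.23%. Only Eif2c4 had all 7 below, against 5.96% of all genes. These libraries were chosen by ribosomal protein share, so the counts are descriptive. The 25 included 4 of 6 genes with Eef1 symbols, 4 of 5 eIF1 and eIF1A genes and 3 of 4 eIF2 subunit genes. They also included 7 of 14 eIF3 genes and 4 of 12 genes of the eIF4 group. No kinase and no subunit of eIF2B, the factor that recharges eIF2 with GTP, had all 7 above. The same was true of the eIF4E-binding genes, of Eef2 and Eef2k, and of the Argonautes. Most genes of any kind did not separate in this way (4.23% did).

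The ratio of the median CPM in the 7 to that in the 9 was 77.1 for Eef1a1, the main eEF1A gene of most tissues, 18.4 for Eif3a, 16.8 for Eif2s2 (the beta subunit of eIF2) and 3.69 for Eif5, which stimulates GTP hydrolysis by eIF2. Among the kinases it was 1.90 for Eif2ak4, 1.56 for Eif2ak2, 0.691 for Eif2ak1 and 0.445 for Eif2ak3. Eef1a2, the eEF1A gene of neurons and muscle, had a median of 0.317 CPM in the 7 and 23.4 CPM in the 9. Eef2k, the kinase that inhibits eEF2, had 15.2 and 75.5 CPM. Both genes overlapped between the 7 and the 9. Ranges were 0 to 8.66 and 1.75 to 44.9 CPM for Eef1a2. Those of Eef2k were 0 to 27.2 and 12.5 to 126 CPM. For Eif4ebp1, which encodes a repressor of eIF4E, the ratio of medians was 1.70, also with overlapping ranges.

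**Figure D2:**
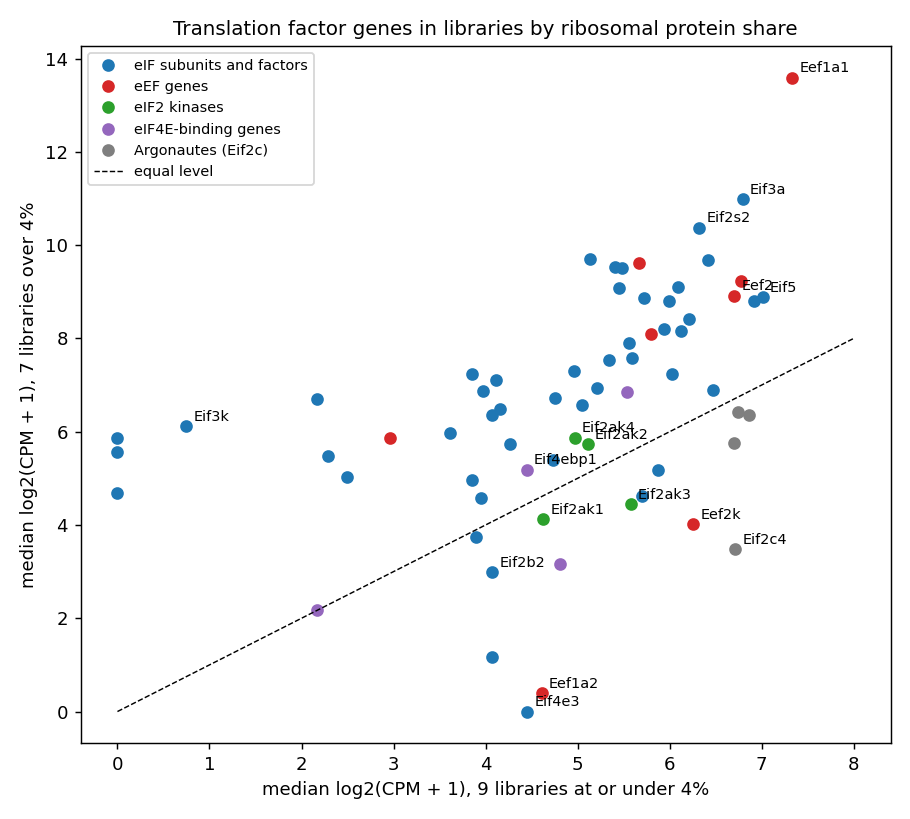
Each point is 1 of the 67 genes, with its median log2(CPM + 1) in the 9 libraries at or under 4% on the x axis and in the 7 libraries over 4% on the y axis. Eef1a1 is farthest above the dashed line of equal level, the 4 eIF2 kinases sit near it, and Eef1a2, Eef2k and Eif2c4 lie below it.

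Levels per length were compared in the deposited FPKM (fragments scaled to transcript length and library size) within the 7 libraries. Median FPKM over the libraries was 6725 for Eef1a1, from 1547 to 12436, next to 840 for Eif3m, whose highest library reached 2198. Eif1, which guards start codon choice, had 613 FPKM, Eif2s2 557, Eef1g 552 and Eif3e 451. The ranges of these 5 overlapped, so their order was not resolved beyond the spread. All 4 kinases were at the low end, with Eif2ak2 at 11.4, Eif2ak4 at 10.9, Eif2ak1 at 6.29 and Eif2ak3 at 5.37 FPKM, and their ranges overlapped as well. The median of the 67 genes stood between the 90.1th and 95.8th percentile of all genes in each of the 7 libraries, and between the 55.5th and 74.0th in each of the 9. Eef1a1 has many processed copies in the genome, and Eif1a and Eif1ax, Eif2s3x and Eif2s3y, and Eif3j1 and Eif3j2 are near copies, so the split of reads within these sets is uncertain.

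The comparison of each time with control asks which transcripts responded to the drug. Across all 16 libraries, 39 of the 67 members had a fragment in every library and were tested among 5030 genes, and the other 28 were left out by this filter. By edgeR's quasi-likelihood test with Benjamini-Hochberg adjustment, 0 members passed at 45, 135 or 405 min, and the share of all genes called was 0% at each time. At an unadjusted p under 0.05, 16, 4 and 22 members were higher and 0 lower, where 12.1%, 7.83% and 14.5% of all genes were higher. They became 9, 1 and 16 with scaling by total fragments, 0, 0 and 3 with a term for the receptor share and 1, 0 and 23 with the replicate number as a block. These counts also rested on single libraries. At 45 min the 16 became 2 to 7 without control replicate 1, 3 or 4 or without 45 min replicate 1 or 2. At 135 min the 4 became 0 to 2 without control replicate 1, 3 or 4 or without 135 min replicate 1, and 15 or 10 without 135 min replicate 3 or 4. At 405 min the 22 became 10 to 14 without control replicate 1, 3 or 4 or without 405 min replicate 4. Positive values were found in 34, 33 and 34 of the 39 (54.9%, 56.2% and 53.1% of all genes). Median log2 fold changes over the 39 were 1.89, 1.24 and 2.25, against 0.14, 0.16 and 0.11 over all genes tested. DESeq2, run as an alternative, called 12, 5 and 17 members, all higher, with 6.56%, 3.44% and 8.03% of the 5030 genes called. Its independent filtering gave no adjusted p to 14, 22 and 9 of the 39 members. The same held for 3706, 4388 and 2828 of the 5030 genes. Without this filtering DESeq2 called 0, 0 and 7 members, with 0.0199%, 0.0398% and 4.31% of genes called. None of the 3 kinases tested was called by either.

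Among the members that passed the filter and were tested, the largest log2 fold changes at 405 min were those of 2 elongation factors. Members left out by the filter, Eif3g and Eif3k among them, were not ranked. Eef1a1 was at 302, 781, 113 and 156 CPM in the controls and at 13467, 699, 2822 and 16213 CPM at 405 min. Replicate 2 at 405 min lay inside the control range and the other 3 above it. The log2 fold change was 5.05 (SE 2.10, adjusted p = 0.285). Eef2 was at 101, 103, 127 and 83.3 CPM in the controls and at 5122, 136, 98.2 and 1231 CPM at 405 min, so that replicate 3 overlapped the controls. The difference on the log2 scale was 4.34 (SE 1.41, adjusted p = 0.285). DESeq2 called both, with log2 fold changes of 4.93 and 4.18.

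Among initiation factors, Eif1 was at 44.0, 75.5, 58.3 and 46.2 CPM in the controls and at 938, 84.5, 164 and 978 CPM at 405 min. The groups did not overlap, and the log2 fold change was 3.69 (SE 1.13, adjusted p = 0.285). Eif5 was at 128, 147, 128 and 83.3 CPM in the controls and at 472, 156, 427 and 542 CPM at 405 min, again without overlap (log2 fold change 2.08, SE 0.82, adjusted p = 0.285). Eif2s1, the subunit that the kinases phosphorylate, differed by 2.18 (SE 0.996, adjusted p = 0.302) and Eif4e by 1.92 (SE 1.07, adjusted p = 0.360). In all, 8 of the 39 members had all 405 min libraries above all controls, with 6.86% of all genes doing so, and 1 had all below, with 6.88% of genes. The 8 were Eif1, Eif1a, Eif2s2, Eif2s3x, Eif3c, Eif3e, Eif4a2 and Eif5, and the 1 below was Eif2c1. At 45 min only Eif4a2 stood above all controls (1.37% of genes) and at 135 min only Eif4g3 (2.47% of genes), with 0 members below at either time (2.80% and 4.06% of genes).

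No kinase passed the test against control, and its levels overlapped between groups. Eif2ak1, which senses haem, had 27.4 ± 6.18 CPM in the controls and 16.3 ± 10.5, 19.0 ± 18.7 and 18.9 ± 5.70 CPM at 45, 135 and 405 min (SD, n = 4). For Eif2ak3, the kinase of the endoplasmic reticulum, the values were 59.1 ± 18.6 in the controls and 39.1 ± 34.4, 25.5 ± 17.4 and 34.2 ± 16.9 CPM after the drug. Eif2ak4, which senses uncharged tRNA, had 36.7 ± 19.3 CPM in the controls and then 49.6 ± 34.6, 37.9 ± 39.6 and 37.7 ± 5.49 CPM. Log2 fold changes at 405 min were -0.23 (SE 0.69, adjusted p = 0.856), -0.59 (SE 0.66, adjusted p = 0.613) and 0.32 (SE 0.90, adjusted p = 0.842). Eif2ak2, which senses double-stranded RNA, was not tested because replicate 3 at 135 min had 0 of 570323 fragments, which allows up to 5.26 CPM. Its mean was 41.8 ± 15.6 CPM in the controls and 50.8 ± 8.54 CPM at 405 min. With standard errors of 0.66 to 0.90 log2 units, equal levels were not shown.

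The size of the differences from control depended on the libraries over 4%. When only the 9 libraries at or under 4% were fitted, 43 members were tested and 0 were called, with 0%, 0% and 0.0239% of all genes called at 45, 135 and 405 min. The members' medians became -0.30, -0.19 and 0.15, against 0.00, 0.04 and -0.05 over all genes. Eef1a1 then had log2 fold changes of -1.67, -0.85 and 1.05. At 405 min this fit has only replicate 2, whose spread is assumed to be that of the other groups. In all 16 libraries with a term for the receptor share, 0 members were called and the medians were 0.12, 0.77 and 0.92.

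**Figure D3:**
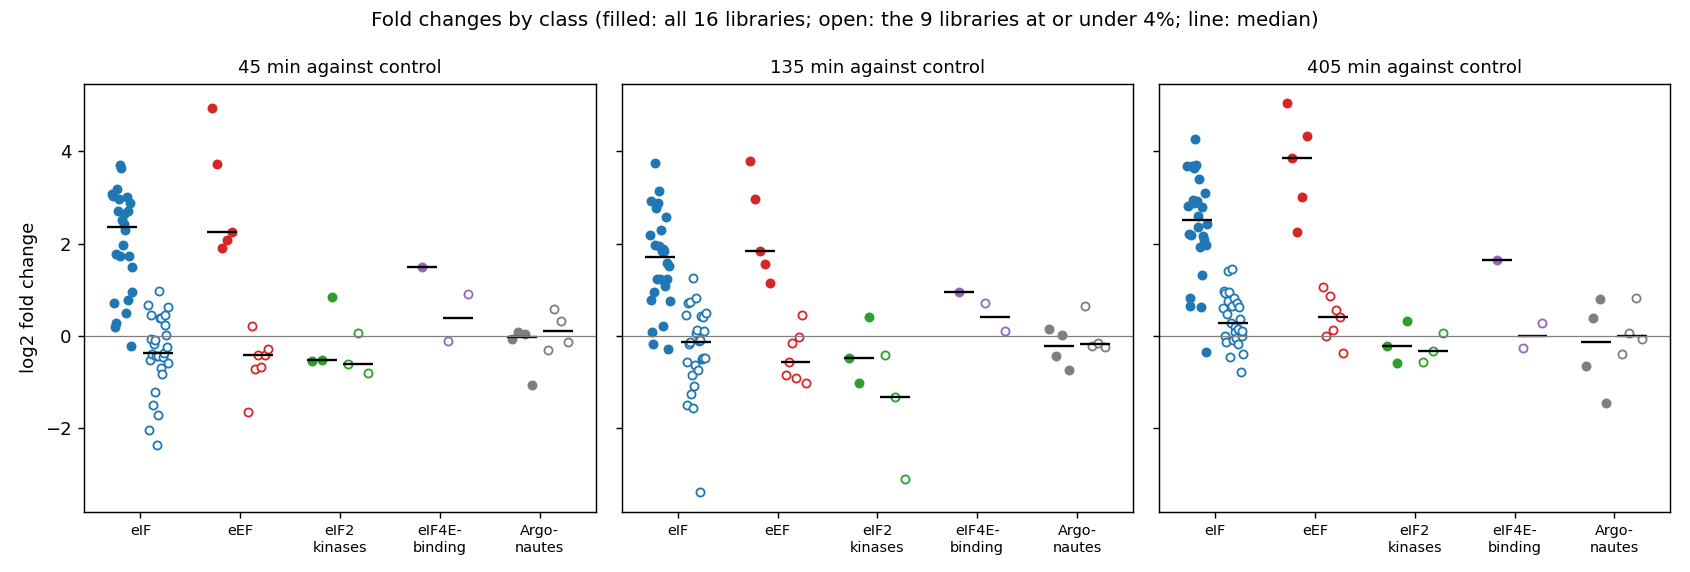
Log2 fold change against control of each tested gene by class at 45, 135 and 405 min. Filled points come from all 16 libraries and open points from the 9 libraries at or under 4%, and the black line is the median of each set. Initiation and elongation factors lie mostly above 0 when filled and around 0 when open, while kinases and Argonautes lie around 0 or below in both.

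The time course itself was read in the 7 libraries over 4%, with 2, 2 and 3 libraries at 45, 135 and 405 min. Of the 67 members, 59 had a fragment in each and were tested among 8605 genes. By edgeR's quasi-likelihood test 0 members passed in any of the 3 comparisons between times, where 0% of all genes were called. At an unadjusted p under 0.05 the members numbered 1, 2 and 1 for 135 against 45 min, 405 against 135 min and 405 against 45 min, where 1.64%, 3.32% and 7.16% of all genes passed. DESeq2, with or without independent filtering, called 0 members too, where it called 0.0349%, 0% and 0.721% of all genes, and the edgeR exact test called 0 members. The biological coefficient of variation was 68.2%, with 4 residual degrees of freedom.

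Most members had lower values at 135 min than at either other time, within this spread. From 45 to 135 min, 11 of 59 members had a positive log2 fold change (46.3% of all genes) with a median of -0.48, and all 5 eIF2B genes and 11 of 12 eIF3 genes were negative. This median became -0.22 (22 of 59 positive) without 45 min replicate 1, -0.75 (16) without 45 min replicate 2 and -0.71 (19) without 135 min replicate 2. With the replicate number as a block it was -0.50, with 12 of 59 positive and 0 called. From 135 to 405 min, 45 of 59 were positive (57.0% of all genes) with a median of 0.57, among them all 5 eIF2B and all 5 genes of the eIF5, eIF5A, eIF5B and eIF6 class. This median became 0.35 (36 of 59 positive) without 405 min replicate 4 and 0.86 (47) without 405 min replicate 3. These comparisons share the 135 min libraries. In replicate 1 at 135 min Eif2b1 to Eif2b5 rested on 77, 7, 1, 11 and 1 fragments. In replicate 2 they had 155, 32, 152, 38 and 196. Over the whole span from 45 to 405 min, 33 of 59 were positive (55.7% of all genes), with a median of 0.08 against 0.14 over all genes. Leaving out replicate 1 at 45 min moved this median to 0.42, and leaving out replicate 2 at 45 min or replicate 4 at 405 min moved it to -0.02 or -0.24. Leaving out replicate 3 at 405 min moved it to 0.32. A receptor share term in the fit gave medians of 0.00, 0.19 and 0.25 for the 3 comparisons, and 30 of 59 members were then positive from 45 to 135 min.

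By class, differences over the span were small beside their errors. Medians at 405 against 45 min were 0.08 over 43 initiation factor genes, -0.21 over 6 elongation factor genes and 0.10 over the 4 kinases. The 5 eIF2B genes were all positive, with a median of 0.75, and the 4 eIF2 subunit genes all negative, with a median of -0.14.

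Eif4ebp1, which encodes a repressor that holds eIF4E away from eIF4G, had the largest difference of the panel from 45 to 405 min. It was at 48.7 and 14.7 CPM at 45 min, 6.66 and 32.3 CPM at 135 min and then 294, 35.4 and 64.8 CPM at 405 min. All 3 late libraries lay above both 135 min libraries, and replicate 3 at 405 min lay within the 45 min range. The log2 fold change was 2.91 (SE 1.06, adjusted p = 0.909) against 135 min and 2.03 (SE 1.004, adjusted p = 0.691) against 45 min. Its partner Eif4e was at 298 and 297 CPM at 45 min, 238 and 250 CPM at 135 min and then 142, 119 and 214 CPM at 405 min. All late libraries were lower than all earlier ones (log2 fold change against 45 min -0.87, SE 0.58, adjusted p = 0.715). Transcripts of Eif4ebp1 and Eif4e have 57.2% and 40.3% G and C. In replicate 1 at 405 min members' deviations went with this base composition (r = 0.67, described below). Whether it had a part in the values of these 2 genes was not tested.

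Eif2ak4 also had its lowest levels late in the course. It was at 67.6 and 87.9 CPM at 45 min, 84.0 and 57.6 CPM at 135 min and then 34.1, 45.5 and 33.6 CPM at 405 min. The late libraries were all lower than the 4 earlier ones, and the log2 fold change against 45 min was -1.05 (SE 0.55, adjusted p = 0.692). Eif2ak4 and Eif4e were the only 2 of the 59 members with all 3 late libraries lowest. This pattern was less frequent among the members than among all genes (7.72%). Members with all 3 late libraries highest were Eif2b2, Eif2b3, Eif2b4, Eif2c3 and Eif2d, 5 of 59, against 2.37% of all genes. The lowest late and highest earlier levels were 85.4 and 84.7 CPM for Eif2c3, 36.1 and 35.3 for Eif2b3, and 13.4 and 12.3 for Eif2b4. They were 26.1 and 22.9 CPM for Eif2d and 9.38 and 6.90 CPM for Eif2b2, which had 13 fragments in replicate 3 at 405 min.

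The other kinases overlapped across times. Eif2ak1 was at 21.2 and 7.04 CPM at 45 min, 11.7 and 16.4 CPM at 135 min, and 27.0, 13.7 and 16.9 CPM at 405 min (log2 fold change 0.46, SE 0.82, adjusted p = 0.883 for 405 against 45 min). Eif2ak2 was at 74.7 and 52.2, then 34.2 and 56.5, then 51.1, 41.9 and 62.3 CPM (-0.26, SE 0.56, adjusted p = 0.906). Eif2ak3 was at 20.8 and 10.8, then 20.3 and 34.9, then 27.7, 49.1 and 13.3 CPM (0.88, SE 0.75, adjusted p = 0.753).

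Eif5 was the steadiest member, at 436 and 511 CPM at 45 min, 474 and 390 CPM at 135 min, and 472, 427 and 542 CPM at 405 min. Over the span it differed by 0.03 (SE 0.61, adjusted p = 0.990). Eif1 was at 774 and 462, then 185 and 546, then 938, 164 and 978 CPM (log2 fold change 0.22, SE 0.86, adjusted p = 0.955). For Eif2s1 the levels were 277 and 178, then 66.6 and 186, then 229, 102 and 307 CPM (log2 fold change -0.04, SE 0.68, adjusted p = 0.990). Eif4g1, the scaffold of the cap complex, was at 620 and 191, then 53.6 and 295, then 722, 82.3 and 354 CPM (-0.06, SE 0.95, adjusted p = 0.990). In the last 3 genes replicate 1 at 135 min and replicate 3 at 405 min were the lowest libraries, so times overlapped.

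Eef1a1 was at 17407 and 12340 CPM at 45 min, 6039 and 9039 CPM at 135 min and then 13467, 2822 and 16213 CPM at 405 min. The 2 libraries at 45 min were above those at 135 min, and the late libraries spanned both (log2 fold change from 45 to 405 min -0.40, SE 1.04, adjusted p = 0.927). Eef2 was at 1251 and 95.3, then 69.8 and 480, then 5122, 98.2 and 1231 CPM. Its values differed more between libraries of one time than between times, and the difference on the log2 scale was 1.67 (SE 1.49, adjusted p = 0.770).

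**Figure D4:**
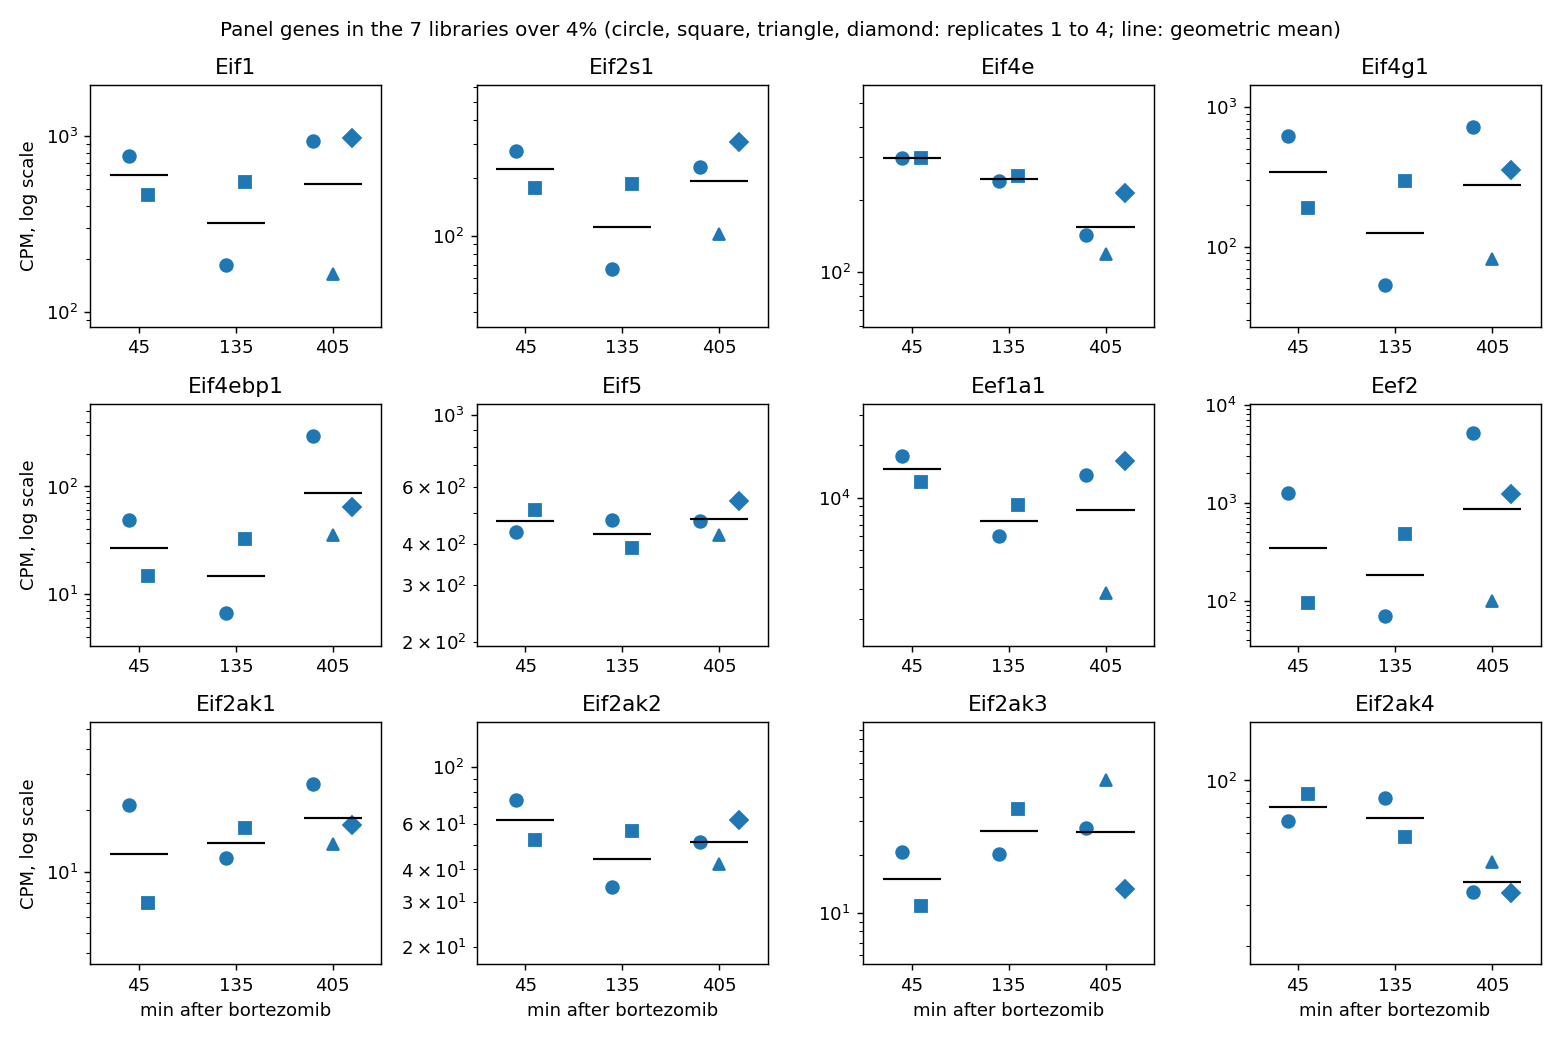
CPM (log scale) of 12 genes in the 7 libraries over 4% by min after bortezomib, with marker shapes for replicates 1 to 4 and a line at the geometric mean of each time. Eif4e and Eif2ak4 have all 405 min points lowest, Eif5 is level, and Eef2 varies most within a time.

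Members outside the panel that reached an unadjusted p under 0.05 were both genes of the eIF1 and eIF1A class, and they were picked after their values were seen. Eif1ax was at 165 and 274 CPM at 45 min, 68.2 and 104 CPM at 135 min and then 96.9, 56.3 and 113 CPM at 405 min. Both 45 min libraries lay above all later ones, and the log2 fold change from 45 to 135 min was -1.50 (SE 0.66, adjusted p = 0.997). Eif1b, a paralogue of Eif1, was at 54.6 and 148, then 147 and 42.9, then 19.3, 43.3 and 21.0 CPM (log2 fold change from 45 to 405 min -1.90, SE 0.75, adjusted p = 0.690).

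The ratio of the highest to the lowest CPM over the 7 libraries had a median of 4.57 over the 59 members and 5.65 over the 8605 genes. It was 1.39 for Eif5, 1.63 for Eif2b1, 1.88 for Eif5b and 2.08 for Eif3a. At the other end it was 73.4 for Eef2, 180 for Eif2b3, 260 for Eif2b5 and 669 for Eif3f, each with its lowest level in replicate 1 at 135 min, where the last 3 rested on 1 fragment. By class, the median was 2.69 for the 5 genes of the eIF5, eIF5A, eIF5B and eIF6 class, 2.74 for 5 eEF1 genes, 3.23 for the kinases, 6.48 for the eIF3 genes, 9.87 for the 4 Argonautes, 18.4 for the eIF2B genes and 24.4 for 2 eIF4E-binding genes.

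The members' deviations went most closely with the base composition of their transcripts in 2 of the 7 libraries. GC content of the 59 members ran from 38.5% to 57.9%. Across them, the Pearson correlation between GC content and the deviation of a library from the gene's mean log2(CPM + 1) over the 7 libraries was 0.67 in replicate 1 at 405 min and -0.61 in replicate 2 at 45 min. The slopes were 1.35 and -0.92 log2 units per 10 percentage points of GC. Replicate 1 at 135 min had a similar slope to the latter, -0.90, with a weaker correlation (-0.38). Correlations in the other 5 libraries were 0.31 (45 min replicate 1), -0.38 (135 min replicate 1), 0.02 (135 min replicate 2), -0.22 (405 min replicate 3) and 0.29 (405 min replicate 4). Over the 8009 genes with a GC content the correlations for replicate 1 at 405 min and replicate 2 at 45 min were 0.48 and -0.35. Replicate 1 at 135 min had -0.26 over these genes, with a slope of -0.53, as in replicate 2 at 45 min. Genes are not independent replicates, and these are descriptions.

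Levels in replicate 1 at 405 min and replicate 2 at 45 min are given for the genes whose sequences are printed above. Eef2, whose transcript has 57.1% GC, was at 5122 CPM in replicate 1 at 405 min and at 95.3 CPM in replicate 2 at 45 min. Eif1ax, at 39.7% GC, was at 96.9 and 274 CPM in the same libraries, and Eif3e, at 39.9%, at 485 and 1050 CPM. Eef1d, at 56.1%, was at 274 and 243 CPM, a smaller difference in the direction of Eef2. When a GC offset was added to the fit, 0 members were called and the medians of the 3 comparisons were -0.45, 0.53 and 0.22.

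**Figure D5:**
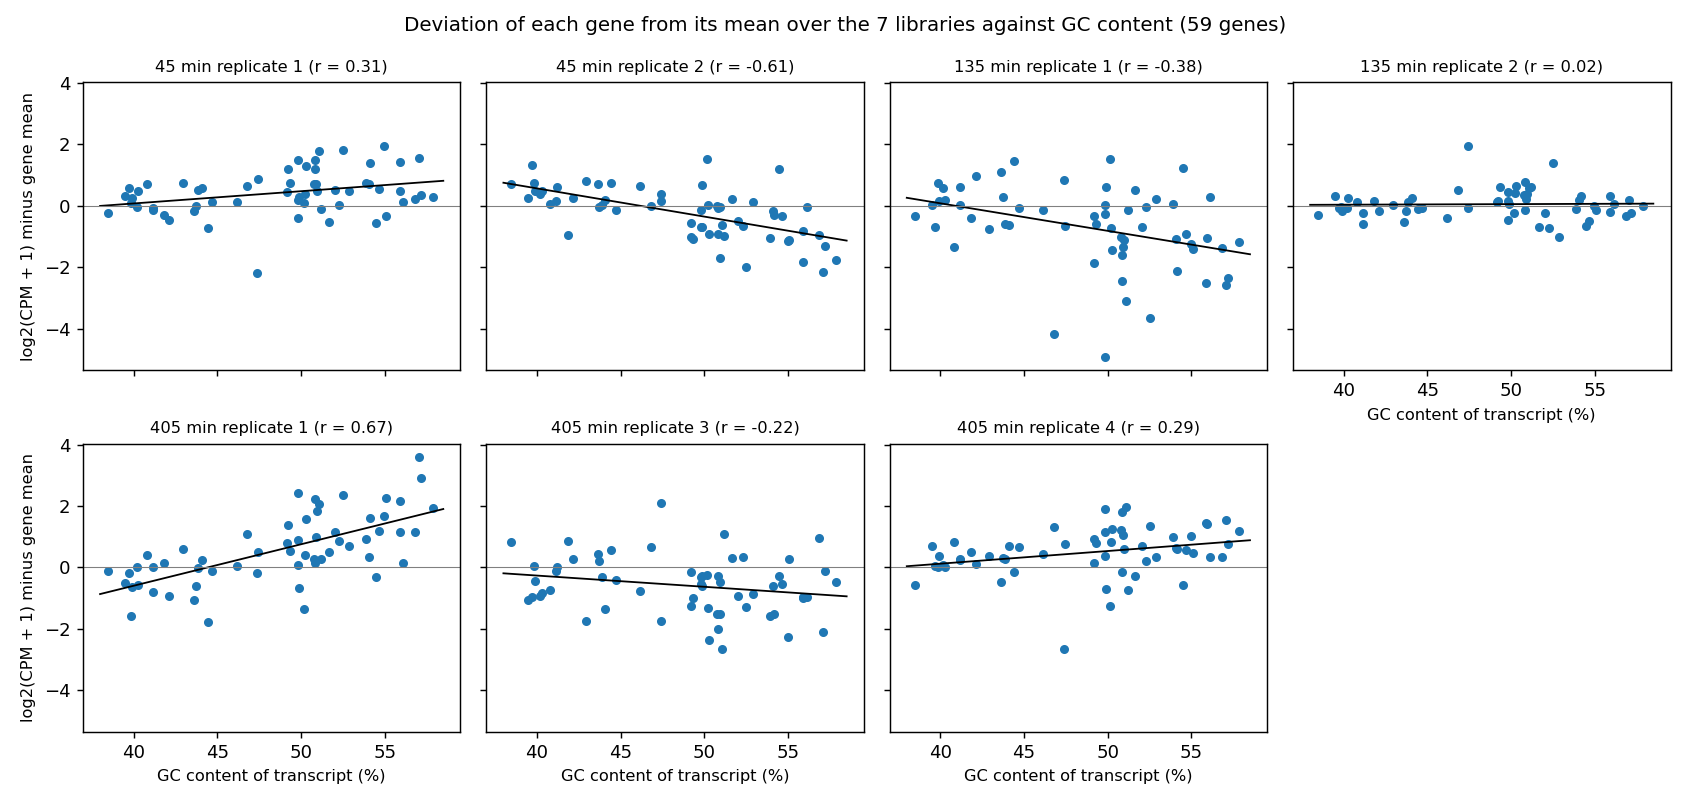
Deviation of each of 59 genes from its own mean log2(CPM + 1) over the 7 libraries (y axis) against the GC content of its transcript in percent (x axis), 1 panel per library, with a least-squares line. The line rises most in replicate 1 at 405 min. It falls most, at similar slopes, in replicate 2 at 45 min and replicate 1 at 135 min.

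Other genes of translation and of the stress pathway downstream of eIF2 gave 0 calls by edgeR's quasi-likelihood test in every comparison. DESeq2 called Abce1 and Pabpc1 at 45, 135 and 405 min against control, Atf4 and Ddx3x at 45 and 405 min, and Etf1 and Denr at 405 min, all higher, and between times it called Atf3 and Ppp1r15a, higher at 405 than at 45 min. Without independent filtering it called Atf4, Etf1, Pabpc1 and Gfm1 at 405 min against control, and the same 2 genes between times. In the 7 libraries, 10 of 12 genes of the integrated stress response were tested, and from 45 to 405 min 7 were positive, with a median of 1.50, and 4 reached an unadjusted p under 0.05. Of all genes 55.7% were positive, with a median of 0.14, and 7.16% were under that p. The log2 fold change was 5.24 (SE 0.80, adjusted p = 0.484) for Atf3, a stress-induced transcription factor, and 4.54 (SE 1.26, adjusted p = 0.690) for Ppp1r15a, which directs dephosphorylation of eIF2 alpha. It was 2.25 for Chac1 and -1.58 for Cebpb. Atf4 itself differed by 0.02 (SE 0.69, adjusted p = 0.995). Of the release, recycling and poly(A)-binding genes 3 of 9 tested were positive, of the scanning helpers 3 of 9, and of the mitochondrial and selenocysteine translation factors 2 of 7, with medians of -0.34, -0.09 and -0.11. Against control at 405 min, Pabpc1, the poly(A)-binding partner of eIF4G, differed by 4.87 (SE 1.70, adjusted p = 0.285), and all 6 tested genes of its list were positive (53.1% of all genes), with a median of 2.26. In the 9 libraries at or under 4%, 3 of these 6 were positive, with a median of -0.02.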

How the data were processed

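RNA from 16 samples was sequenced, and the authors deposited for each sample a table of estimated counts of fragments per gene and of FPKM. According to the study's methods, poly(A) RNA was made into random-primed libraries, sequenced on an Illumina HiSeq, and mapped to mm9 with RefSeq genes, whereas the submitters' processing notes name mm10. Between 97.9% and 99.4% of the counts were whole (within 1e-06). They were rounded before testing. In 1 table, 27 symbols had become dates and were restored from the row order. None of the 120 pairs of libraries held identical counts. Same-numbered replicates deviated together (r over 0.1 in all 4 pairs, 0.475 to 0.526) between 45 and 135 min. In both these groups replicates 1 and 2 are the libraries over 4%. The other 5 pairs of groups did not have r over 0.1 in all 4 pairs. Of all 24 pairs of libraries 14 were over 0.1. Replicates 1 to 4 had 0.002, 0.389, 0.197 and 0.137 for control and 45 min. For control and 135 min they had -0.010, 0.272, 0.158 and 0.113.

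The main test was edgeR 4.0.16 (R 4.3.3, limma 3.58.1) quasi-likelihood with TMM scaling, on genes with at least 1 fragment in every library fitted, and a threshold of 0.05 on adjusted p. Comparisons with control used all 16 libraries, those between times the 7 over 4%, with all groups sharing 1 estimate of spread. DESeq2 1.42.0, other scalings, filters and covariates, and each library left out in turn were alternatives. The test was tried on simulated counts. CPM are fragments of a gene per 1000000 over all genes, and a pseudocount of 1 was added for log2 CPM. Of the members, 65 of 67 matched GENCODE M1 by symbol. Depth ranged 34.9-fold, so low levels in shallow libraries are least precise.

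Members and lists were chosen with earlier results of these data known. Values in full were given for a fixed panel of 12 members, and for members called by edgeR's quasi-likelihood test, of which there were none. Other members named were chosen after their values were seen.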

Additional observations from a re-analysis of the deposited data

Results flagged for a closer look

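Within groups of 4, 1 of 72 sets of values of the panel genes and class shares held a library far from the others, where chance gives about 3.6. Eef2 was at 10.29 on the log2(CPM + 1) scale in replicate 1 at 45 min, and the other 3 libraries of that time were between 6.13 and 6.59. One of these 3, replicate 2, also had a ribosomal protein share over 4%.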

How the results depend on the processing

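Scalings, filters, tests, covariates and left-out libraries were compared. Genes called against control at 45, 135 and 405 min were 330, 173 and 404 with DESeq2, and 1, 2 and 217 without its independent filtering, which had set the adjusted p of 3706, 4388 and 2828 genes aside. At 405 min against control the edgeR exact test called 12 genes, filterByExpr 1, no filter 1, and the 9 libraries at or under 4% 2. Members called were 12, 5 and 17 with DESeq2 and, without independent filtering, 7 at 405 min. Between times, no filter called 3 genes (135 against 45 min), 8 (405 against 135 min) and 16 (405 against 45 min), filterByExpr 4 and 6 for the last 2, DESeq2 3 for the first and 62 for the last, with or without independent filtering, and the exact test 17 for the last. The cause was not tested. In these settings between times 0 members were called.

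A value was read as reversed when its sign changed and it moved by more than 1 SE of the main value. This held for Eif2ak1 at 405 min against control with filterByExpr (0.61) and no filter (0.69), Eif2ak3 at 405 min against control with no filter (0.085), Eif2ak3 for 405 against 45 min in all 16 libraries (-0.055), and Eif4g1 for 405 against 45 min without 45 min replicate 1 (0.98, the highest when libraries were left out, with -0.74 without 405 min replicate 1 as the lowest). The cause was not tested. The other 360 values of panel genes kept their direction or stayed within 1 SE, on the same side of the threshold, and 7 passed it with DESeq2. Leaving out each replicate in turn gave 0 to 0 genes and 0 to 0 members called in each comparison. Scaling by total fragments moved the median of all genes against control to -0.18, -0.10 and -0.40, and that of members to 1.19, 0.95 and 1.55. Replicate numbers met the bar for pairing only between 45 and 135 min (4 pairs, r from 0.475 to 0.526), and over all 24 pairs r ran from -0.757 to 0.585. With the replicate number as a block, 0 genes and 0 members were called, and members higher than control at an unadjusted p under 0.05 were 1, 0 and 23. Independent filtering and the GC offset were added after the data were seen. Depth under 1000000 fragments in 8 libraries limits levels of the kinases most.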
